A study of Homo sapiens with 6 samples.

Results

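The proteasome is the large protease that degrades ubiquitin-tagged proteins. Transcripts of 41 human genes for its subunits, regulatory particles and activators were followed in the breast cancer line MDA-MB-231 and in 2 populations isolated from it, S1a and S1b. The genes were taken by name. They are PSMA1 to PSMA7, PSMB1 to PSMB10, PSMC1 to PSMC6, PSMD1 to PSMD14 and the activators PSME1 to PSME4. PSMD5, PSMD9 and PSMD10 among them are assembly chaperones, and not every subunit is listed. All probe sets annotated to them were collected, and the main tests and counts use the brightest annotated to each gene alone. The genes make 41 entries beside 11963 genes named on the array. Of the 41, 36 had a probe set annotated to that gene alone, and all 36 passed the filter on dim signals. PSME2 and PSMA6 were covered only by probe sets that carry a second gene name, and PSMC5, PSMD7 and PSMD13 were not analysed here.

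S1a and S1b are, by their labels, seeder cell populations 1 and 2, each isolated once, and were set against the parental MDA-MB-231 line. Seeder cells are circulating tumour cells able to colonise a tumour already present. All cells, parental included, were human, carried no further label of treatment or genotype, and were grown subconfluent in DMEM with 10% serum. Each population was measured on 2 arrays, titled as biological replicates. Separate cultures are not named, and the p-values therefore rest on array-to-array spread, which may be technical. For both isolates together, they leave out the difference between S1a and S1b. No isolated population other than seeder cells was measured, so seeding and isolation cannot be told apart. A signal here is an intensity on a linear scale in arbitrary units, and a log2 change is a difference of log2(signal + 3.942) from a limma model fitted to all 7791 genes past the filter.

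The core of the proteasome is a barrel of alpha and beta rings, and 3 kinds of beta subunit cut the peptide chain. Most cells use the constitutive catalytic subunits PSMB5, PSMB6 and PSMB7. Interferon gamma induces PSMB8, PSMB9 and PSMB10, which take their places in newly built barrels and form the immunoproteasome, whose products more often suit MHC class I molecules. It also induces PSME1 and PSME2, which form a ring that opens the barrel. The regulatory particle, built from PSMC ATPases and PSMD subunits, binds, unfolds and feeds in ubiquitin-tagged proteins.

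Promoter sequences of the interferon-inducible genes are shown because these genes are grouped by a common inducer and did not all change alike. Each run gives 200 bases before and 20 bases after the annotated start, 5′ to 3′ on the strand of the gene, from RefSeq on GRCh38.p14. Capitals mark matches, on either strand, to GAAA followed after any 2 bases by GAAA, the repeat of an interferon-stimulated response element, which IRF factors bind.
PSMB8, start with a match, chr6:32844028-32844247, minus strand: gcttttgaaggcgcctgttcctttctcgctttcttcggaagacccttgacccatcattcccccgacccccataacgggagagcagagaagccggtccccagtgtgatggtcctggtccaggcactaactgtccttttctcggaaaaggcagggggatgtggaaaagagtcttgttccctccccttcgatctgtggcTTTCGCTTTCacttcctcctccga
PSMB9, chr6:32853992-32854211, plus strand: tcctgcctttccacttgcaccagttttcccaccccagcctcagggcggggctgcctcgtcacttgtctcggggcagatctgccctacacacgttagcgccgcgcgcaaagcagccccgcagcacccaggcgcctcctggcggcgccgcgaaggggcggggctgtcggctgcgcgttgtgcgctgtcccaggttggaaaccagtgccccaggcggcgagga
PSMB10, chr16:67936831-67937050, minus strand: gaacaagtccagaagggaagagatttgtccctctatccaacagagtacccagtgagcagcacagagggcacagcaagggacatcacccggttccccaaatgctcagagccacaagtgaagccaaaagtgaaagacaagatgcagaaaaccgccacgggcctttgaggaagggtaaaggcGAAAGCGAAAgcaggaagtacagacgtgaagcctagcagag
PSME1, chr14:24135994-24136213, plus strand: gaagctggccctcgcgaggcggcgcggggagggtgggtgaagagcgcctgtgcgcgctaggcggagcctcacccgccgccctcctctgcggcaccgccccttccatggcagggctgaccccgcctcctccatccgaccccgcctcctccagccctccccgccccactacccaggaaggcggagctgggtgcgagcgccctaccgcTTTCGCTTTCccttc
PSME2, chr14:24146591-24146810, minus strand: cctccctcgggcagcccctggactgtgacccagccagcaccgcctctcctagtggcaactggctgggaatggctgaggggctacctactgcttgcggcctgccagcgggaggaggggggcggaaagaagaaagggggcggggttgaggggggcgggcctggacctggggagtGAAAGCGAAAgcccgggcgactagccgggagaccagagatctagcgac

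Of the 5 inducible genes, 4 held the match, and in all 4 its letters were GAAAGCGAAA or the reverse complement TTTCGCTTTC. The match began 4 bases before the start in PSMB8, 21 before it in PSMB10 and 28 before it in PSME2, and at base 6 after the start in PSME1. The window of PSMB9 and that of the other annotated start of PSMB8 held none of these letters. Windows of 300 bases, 250 before and 50 after a start, were searched for 36 of the 41 genes, and 2 of the 31 other proteasome genes, PSMB4 and PSMA4, held this repeat. Among all 35116 promoter windows in the table, 3.57% held it. The exact run GAAAGCGAAA, whose letters were chosen after these windows were seen, was in 35 of them, or 0.0997%. The gamma-activated site TTCNNNGAA, which reads the same on both strands, was in 7 of 43 windows of proteasome genes (16.3%) and in 7.66% of all windows. Of the 5 inducible genes, only PSMB8 held it. TGACNNNGC, the core of the site that the factors NFE2L1 and NFE2L2 bind, was in 13 of 43 (30.2%) and in 13.3% of all. A match is a description of letters, not evidence of binding.

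PSMB8, PSMB9 and PSMB10, the inducible catalytic subunits, fell in the isolates, while neither PSME1 nor the probe set of PSME2 passed the test. PSMB9 fell furthest, to 55.7% of the parental signal in S1a and 31.4% in S1b. PSMB8 stood at 63.7% in S1a and 43.6% in S1b, and PSMB10 at 83.1% and 50.9%. Their constitutive counterparts did not fall past the threshold, and PSMB6 rose. In RNA from whole populations, fewer cells that express a gene and less RNA per cell cannot be told apart.

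PSMB9, which replaces PSMB6 and lies beside the peptide transporter gene TAP1, had signals of 842 and 777 units on the S1a arrays, 489 and 423 on the S1b arrays and 1408 and 1496 on the parental arrays. All 4 isolate arrays lay below both parental arrays, and both S1b arrays below both S1a arrays. The log2 change was -1.25 ± 0.0943 (SE, limma adjusted p = 6.04e-06), with -0.84 in S1a and -1.67 in S1b. This SE comes from the spread within populations, over 4 isolate arrays and 2 parental ones. It leaves out the difference between the 2 isolates, as do those of both isolates given below.

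PSMB8, which replaces PSMB5 and also lies in the MHC region, had 1029 and 1026 units in S1a, 751 and 653 in S1b and 1460 and 1765 in parental cells. The order of the populations was that of PSMB9, again without overlap. PSMB8 fell by 0.92 ± 0.1 on the log2 scale (limma adjusted p = 6.34e-05).

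PSMB10, which replaces PSMB7 and lies outside the MHC region on chromosome 16, had 738 and 772 units in S1a, 479 and 445 in S1b and 928 and 888 in parental cells. The populations did not overlap, but the step between parental and S1a was the smaller. The log2 change was -0.62 ± 0.0892 over both isolates (limma adjusted p = 0.000351). It passed in S1b (-0.97, limma adjusted p = 6.53e-05) and not in S1a (-0.27, limma adjusted p = 0.0649). Each of the 3 genes was read by 1 probe set, and that of PSMB8 has a suffix for probes shared between transcripts.

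PSME1, a subunit of the inducible activator ring, had 3656 and 3438 units in S1a, 3556 and 3356 in S1b and 3440 and 3908 in parental cells. The ranges overlapped. Its log2 change was -0.07 ± 0.079 (95% interval -0.24 to 0.11, limma adjusted p = 0.513).

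PSME2, the other subunit of that ring, was read by a probe set annotated both to it and to MIR7703, a microRNA gene inside it. Its signals were 4971 and 4873 in S1a, 5774 and 4884 in S1b and 4727 and 4754 in parental cells. All 4 isolate arrays lay above the parental ones by a small margin. In a fit of every probe set the log2 change was 0.11 ± 0.0843 (95% interval -0.08 to 0.30, limma adjusted p = 0.326), where 42% of all probe sets passed and 1.51% passed in S1b against S1a. The interval of neither activator gene reaches the fall of PSMB10.

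**Figure D1:**
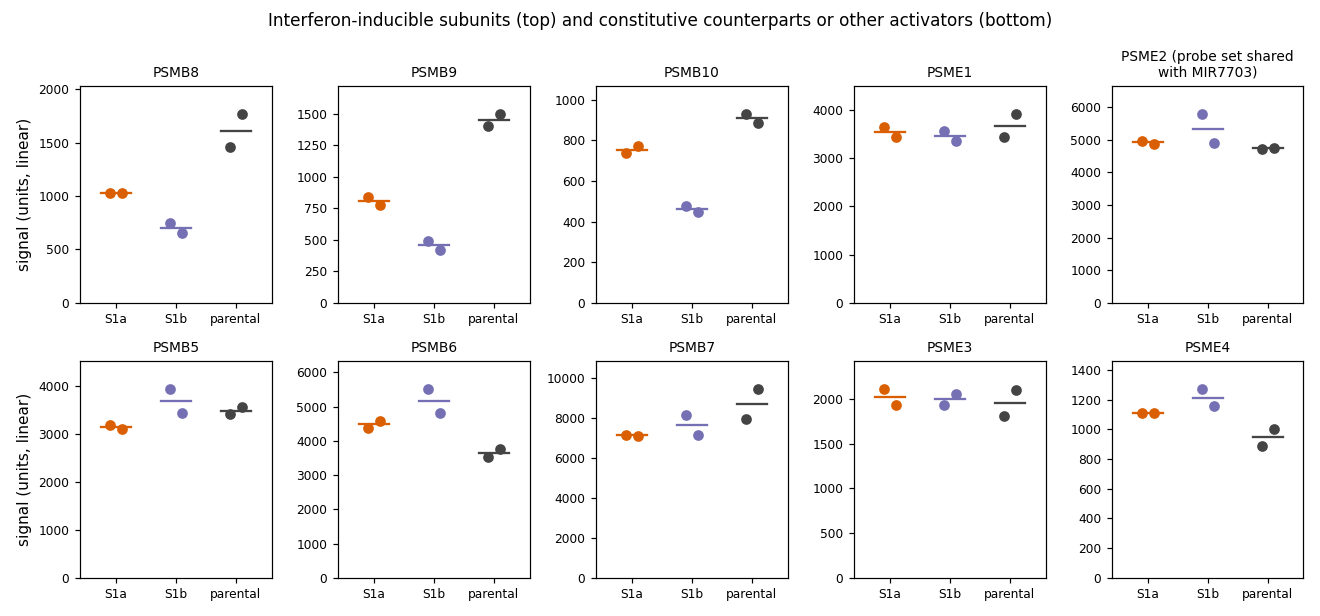
Signal (linear units, axes from 0) of the interferon-inducible genes in the top row and of their constitutive counterparts or other activators in the bottom row, with a point for each array and a line at the mean of each population (S1a, S1b, parental; n = 2 each). PSMB8, PSMB9 and PSMB10 are lowest in S1b, higher in S1a and highest in parental cells, while PSME1 overlaps between populations and PSMB6 is higher in both isolates.

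PSMB5, the constitutive chymotrypsin-like subunit, had 3174 and 3106 units in S1a, 3921 and 3423 in S1b and 3400 and 3551 in parental cells, and did not pass (log2 change -0.04 ± 0.0777, limma adjusted p = 0.736). PSMB6, the caspase-like subunit, had 4384 and 4581 units in S1a, 5502 and 4805 in S1b and 3541 and 3753 in parental cells. All isolate arrays were above both parental ones, and PSMB6 rose by 0.4 ± 0.0792 (log2, limma adjusted p = 0.00251). PSMB7, the trypsin-like subunit, had 7149 and 7123 units in S1a, 8170 and 7174 in S1b and 7927 and 9433 in parental cells. These ranges overlapped, with a change of -0.23 ± 0.0915 (limma adjusted p = 0.0667), which passed without parental replicate 1 (-0.35, limma adjusted p = 0.00744).

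The ratio of each inducible subunit to the one it replaces was compared between the 4 isolate and 2 parental arrays. The log2 ratio of PSMB9 to PSMB6 was -2.38 and -2.55 in S1a, -3.48 and -3.49 in S1b and -1.33 on both parental arrays. That is a difference of -1.65, with a standard deviation between replicate arrays of 0.07, and all 4 isolate arrays lay below. For PSMB8 to PSMB5 the ratio was -1.62 and -1.59 in S1a, -2.38 in both S1b arrays and -1.22 and -1.01 in parental cells, a difference of -0.88. For PSMB10 to PSMB7 it was -3.27 and -3.20 in S1a, -4.08 and -4.00 in S1b and -3.09 and -3.40 in parental cells. This last difference was -0.39, made by S1b (-0.79) and not by S1a (0.01), and its value was -0.23 without parental replicate 1. In an exact permutation test, two-sided over 15 relabellings, p was 0.0667 for PSMB9, 0.133 for PSMB8 and 0.333 for PSMB10 (0.2, 0.2 and 0.333 adjusted over the 3 pairs). The smallest p this design allows is 0.0667. The ratios show unequal change within a population and not the relative amounts of the subunits.

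Leukocytes make immunoproteasome without induction, and their markers were low. The summed signal of 11 leukocyte markers, of 12 listed, was 314 to 347 units in S1a, 220 to 227 in S1b and 370 to 410 in parental cells. Of the 11, 3 had a mean above the filter level of 44 units (CD14, CD53 and CORO1A), and PTPRC, which defines the lineage, ran from 13.8 to 34 units over the 6 arrays. CD14 was lower in the isolates (43.9 and 69.8 units in S1a, 26.4 and 26 in S1b, 70.5 and 103 in parental cells, limma adjusted p = 0.0356). CD53 and CORO1A did not pass, and their log2 changes, -0.53 and 0.51, had opposite signs. The part of these markers in the result was not tested. As markers of the line itself, VIM, CD44 and AXL had at least 6814 units on every array. SPARC, also listed as present, had 35 and 39 units in S1a, 394 and 367 in S1b and 37.1 and 39.6 in parental cells. Of 5 genes listed as low, PGR and CDH1 stayed at or below 30 units. ESR1 ran from 18.3 to 82.1 units, ERBB2 from 147 to 258 and EPCAM from 346 to 495, and these 3 had means above the filter level.

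Among the other 32 proteasome genes tested, 8 rose and 8 fell in the isolates, and their changes were small. All 36 genes tested gave 19 calls, 8 higher and 11 lower, or 52.8% of them. This stands beside 46.2% of all 7791 genes called in the same fit (22.7% higher, 23.5% lower), so the share called was near the background. The median log2 change of the 4 inducible genes tested was -0.77, that of the other 32 was 0.00 and that of all genes tested was -0.03. The size of the change of the 32 had a median of 0.23 and a highest value of 0.58, where the median over all genes was 0.34. At a change of at least 1.5-fold, 3 proteasome genes passed, PSMB8, PSMB9 and PSMB10, beside 22.9% of all genes. All 4 isolate arrays lay below both parental ones for 11 of the 36 and above them for 10, beside 29.7% and 27% of all genes.

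**Figure D2:**
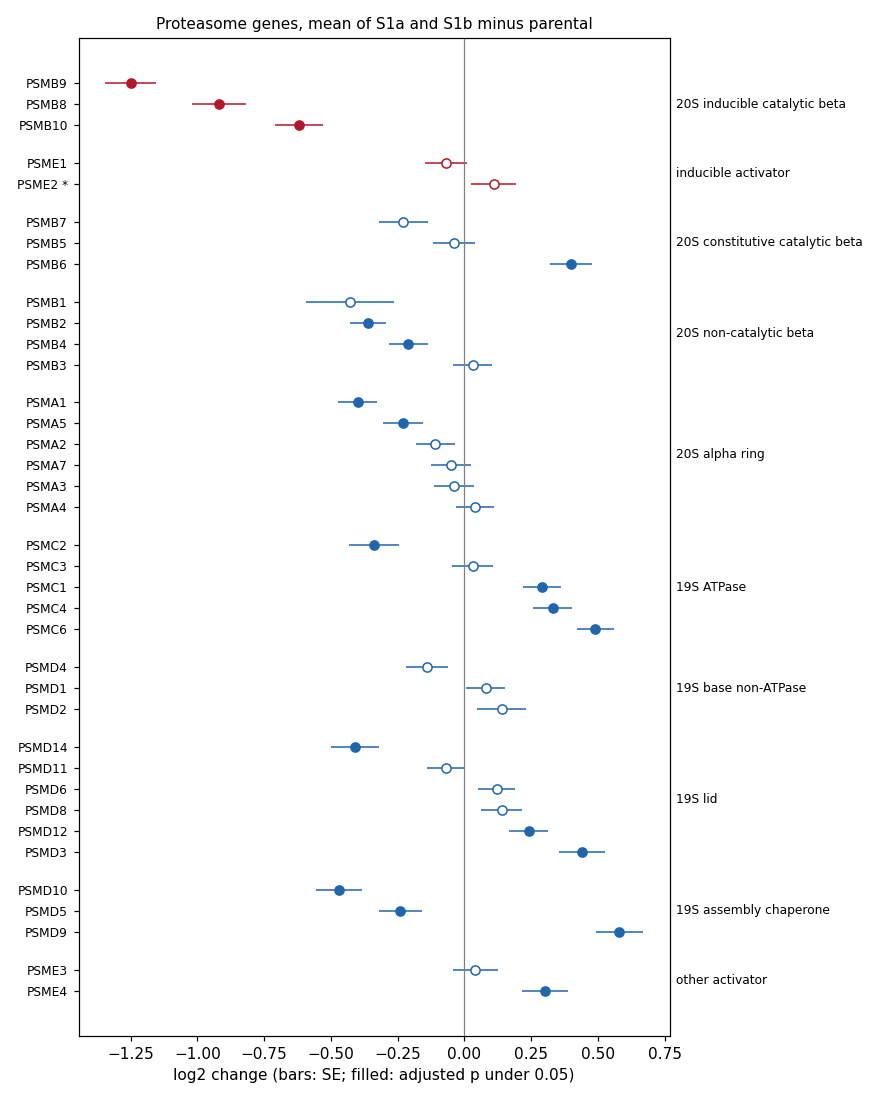
Log2 change of each proteasome gene in the mean of S1a and S1b minus parental, ordered by role, with bars for the SE and filled points for limma adjusted p under 0.05 (PSME2, marked with a star, comes from the fit of every probe set). PSMB9 (-1.25), PSMB8 (-0.92) and PSMB10 (-0.62) lie left of all others, which run from -0.47 to 0.58.

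In the alpha ring, which gates the barrel, 2 of 6 genes tested fell and none rose, or 33.3% called beside 46.2% of all genes. PSMA1 had 5538 and 5180 units in S1a, 5926 and 5827 in S1b and 7166 and 7639 in parental cells, without overlap. It fell by 0.4 ± 0.0723 on the log2 scale (limma adjusted p = 0.00143), and its 3 probe sets gave -0.6 to -0.4. PSMA5 fell by 0.23 ± 0.0751 (limma adjusted p = 0.0294), but had -0.04 with median centring (limma adjusted p = 0.775). PSMA2, PSMA3, PSMA4 and PSMA7 lay between -0.11 and 0.04 and did not pass, and the dimmer probe set of PSMA7 disagreed at 0.41. PSMA6, read by probe sets annotated also to PRORP, had -0.20 in the brighter and 0.33 in the dimmer, neither of them past the threshold.

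Of the beta subunits that do not cut, PSMB2 and PSMB4 fell, and neither passed with median centring (-0.17 and -0.02, limma adjusted p = 0.158 and 0.886). PSMB2 had 3596 and 3541 units in S1a, 3521 and 3483 in S1b and 4492 and 4584 in parental cells, a change of -0.36 ± 0.0669 (limma adjusted p = 0.00167). The isolates lay close together and below the parental line. PSMB1 was split by its probe sets: the brighter had 13192 and 7836 units on the S1b arrays and did not pass (-0.43 ± 0.165, limma adjusted p = 0.0547), while the dimmer passed in the fit of every probe set (-0.56, limma adjusted p = 0.00082). PSMB3 did not pass (0.03, limma adjusted p = 0.785).

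The ATPases that unfold substrates gave 3 rises and 1 fall among 5 tested, or 80% called beside 46.2% of all genes. PSMC6 had 4686 and 4753 units in S1a, 4907 and 5107 in S1b and 3399 and 3543 in parental cells, and rose by 0.49 ± 0.0686 (log2, limma adjusted p = 0.000307). PSMC4 rose by 0.33 ± 0.0731 and PSMC1 by 0.29 ± 0.07, each with all isolate arrays above both parental ones. PSMC2 fell by 0.34 ± 0.0936 (limma adjusted p = 0.0134), a call that ended without parental replicate 2 (-0.19, limma adjusted p = 0.0846), S1a replicate 1 (-0.32, limma adjusted p = 0.05) or the variance trend (limma adjusted p = 0.0703). PSMC3 did not pass (0.03). A fall within this hexameric ring rests on PSMC2 only, whose call also ended with median centring (-0.15, limma adjusted p = 0.313).

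In the rest of the regulatory particle, the scaffolds PSMD1 and PSMD2 and the ubiquitin receptor PSMD4 did not pass (0.08, 0.14 and -0.14). In the lid, PSMD3 rose with 1449 and 1525 units in S1a, 1523 and 1333 in S1b and 1026 and 1120 in parental cells (log2 change 0.44 ± 0.0861, limma adjusted p = 0.00223). PSMD14, the lid's deubiquitinase, had 4981 and 5061 units in S1a, 5157 and 4912 in S1b and 6042 and 7424 in parental cells. It fell by 0.41 ± 0.0895 on the log2 scale (limma adjusted p = 0.00392). PSMD12 rose by 0.24 ± 0.0728, and that call ended without parental replicate 1 (limma adjusted p = 0.0623), S1a replicate 1 (0.101) or S1b replicate 2 (0.0657), with quantile normalization (0.16, limma adjusted p = 0.071) or without the variance trend (limma adjusted p = 0.0826). PSMD6, PSMD8 and PSMD11 did not pass (0.12, 0.14 and -0.07). The probe sets of PSMA2, PSMD1, PSMD4, PSMD11 and PSME4 disagreed in sign, as those of PSMA7 did.

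The chaperones that assemble the base of the regulatory particle changed in both directions. PSMD9 had 2553 and 2520 units in S1a, 2891 and 2702 in S1b and 1961 and 1625 in parental cells. It rose by 0.58 ± 0.0877 (log2, limma adjusted p = 0.000488), the largest rise of the 36 genes. PSMD10, also called gankyrin, had 1393 and 1420 units in S1a, 1437 and 1203 in S1b and 1862 and 1904 in parental cells. It fell by 0.47 ± 0.0869 (limma adjusted p = 0.00165), the largest fall outside the inducible genes. PSMD5 fell by 0.24 ± 0.0816 (limma adjusted p = 0.0358), a call lost with any array left out other than parental replicate 1. Of the other activators, PSME4, found in nuclei, rose by 0.3 ± 0.0859 (limma adjusted p = 0.0175), and the call ended without parental replicate 1 (0.21, limma adjusted p = 0.11) or S1b replicate 1 (0.26, limma adjusted p = 0.0531), with the mean of its probe sets (0.17, limma adjusted p = 0.147) or without the variance trend (limma adjusted p = 0.0586). PSME3, which forms a nuclear ring without PSME1 or PSME2, did not pass (0.04 ± 0.0847).

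The small changes of these genes depend on the scaling of the arrays. Median centring moved the median change of all genes up by 0.19, and under it 12 proteasome genes were higher and 4 lower in place of 8 and 11. PSMA1, PSMA5, PSMB2, PSMB4, PSMC2, PSMD5 and PSMD14 then lost their calls, at changes of -0.22 to -0.02, and the direction of PSMA2, PSMA3, PSMA7, PSMB5, PSMD4, PSMD11 and PSME1, none of them past the threshold, turned. PSMD1, PSMD2, PSMD6 and PSMD8 passed as higher under it (0.27 to 0.33), and PSMD2 also did with quantile normalization (0.19, limma adjusted p = 0.0444). PSMB8, PSMB9, PSMB10 and PSMD10 kept theirs.

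**Figure D3:**
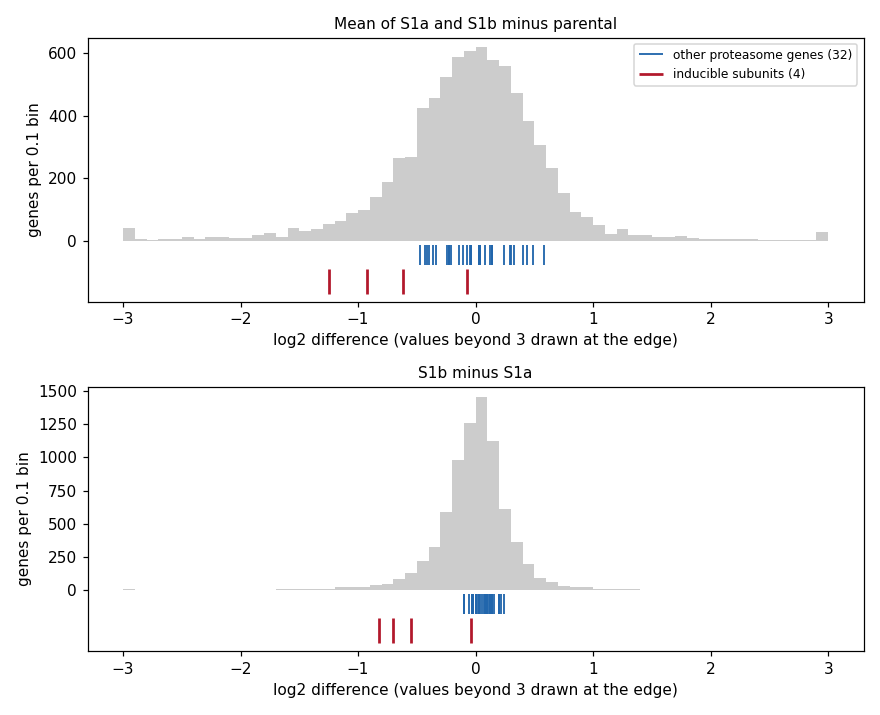
Histograms of the log2 difference over all 7791 genes tested (grey, genes per bin), with ticks under them for the 4 inducible genes tested (red) and the other 32 proteasome genes (blue), for the mean of S1a and S1b minus parental above and for S1b minus S1a below. In S1b minus S1a the 32 other genes lie between -0.10 and 0.24, and PSMB9 (-0.82), PSMB10 (-0.70) and PSMB8 (-0.55) lie below them.

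Taken singly, each isolate gave a like number of calls, and both were set against the same parental arrays. In S1a 16 of 36 genes passed, 6 higher and 10 lower, beside 39.2% of all genes (19.4% higher, 19.9% lower). In S1b 17 passed, 8 higher and 9 lower, beside 41.6% of all genes (20.7% higher, 20.9% lower).

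S1b differed from S1a in the inducible catalytic subunits. Of 36 proteasome genes, 3 passed in S1b against S1a, all lower, where 1.89% of all genes passed (0.462% higher, 1.42% lower). At 1.5-fold or more, 2 of the 3 remained, PSMB9 and PSMB10, beside 1.16% of all genes. PSMB9 was lower in S1b by a log2 difference of -0.82 ± 0.109 (2 S1b against 2 S1a arrays, limma adjusted p = 0.0049), which is 1.77-fold. PSMB10 differed by -0.70 ± 0.103 (limma adjusted p = 0.00952), and PSMB8 by -0.55 ± 0.116 (limma adjusted p = 0.0472). Both S1b arrays lay below both S1a arrays for all 3 genes, as for 23.9% of all genes tested.

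The remaining 33 genes did not pass in S1b against S1a by limma, and 1 of them, PSMB5, had an unadjusted p under 0.05. The largest differences among them were those of PSMB1 (0.24, with 13192 and 7836 units on the S1b arrays), PSMB5 (0.22), PSMB6 (0.20) and PSMD5 (0.20). PSME1 differed by -0.04 (95% interval -0.24 to 0.17). The difference calls rest on few arrays: all 3 ended without the variance trend, without S1a replicate 1 and without S1b replicate 2. PSMB9 then had limma adjusted p = 0.126, 0.0632 and 0.0695, at differences of -0.82, -0.77 and -0.72. PSMB10 also lost its call without S1a replicate 2 (0.113), and PSMB8 without either of S1a replicate 2 (0.248) or S1b replicate 1 (0.125).

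**Figure D4:**
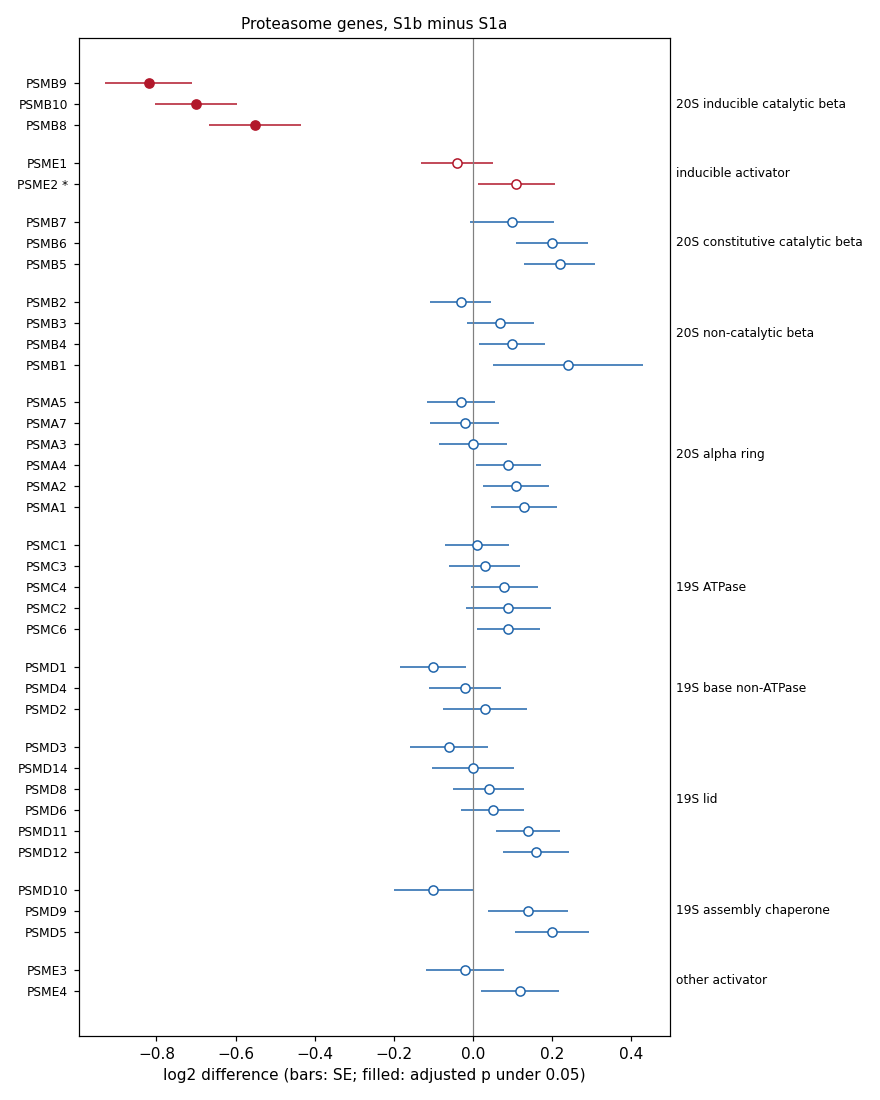
Log2 difference of each proteasome gene in S1b minus S1a, ordered by role, with bars for the SE and filled points for limma adjusted p under 0.05 (the star marks PSME2, from the fit of every probe set). PSMB9 (-0.82), PSMB10 (-0.70) and PSMB8 (-0.55) are the filled points, and no constitutive gene is filled.

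Most genes listed for class I peptide supply were lower in the isolates, as the inducible catalytic subunits were. The list includes B2M, HLA-B, HLA-C, HLA-E and HLA-F, which are chains of the MHC class I molecules that receive the peptides. Of 15 tested, 11 fell and 1 rose in the mean of both isolates, which is 80% called beside 46.2% of all genes (23.5% lower). Their median log2 change was -0.68 beside -0.03 for all genes. TAP1 and TAP2, the transporter subunits whose genes alternate with PSMB8 and PSMB9 in the MHC region, were lower in the isolates. TAP1 averaged 442 units in S1a, 310 in S1b and 1243 in parental cells (-1.73 ± 0.135, limma adjusted p = 7.61e-06). TAP2 averaged 368, 256 and 494 units in the same order (-0.68 ± 0.12, limma adjusted p = 0.00117), a call that ended with the mean of its probe sets (-0.49, limma adjusted p = 0.206). B2M, the light chain of class I, fell by 0.67 ± 0.0771, and HLA-B, HLA-C, HLA-F and HLA-E, whose probe sets share probes with related genes, had changes of -2.50, -2.23, -2.15 and -1.10, all past the threshold. Between S1b and S1a, TAP1 and TAP2 both differed by -0.52 without passing (limma adjusted p = 0.149 and 0.099), and B2M by 0.01. TPP2, a cytosolic peptidase that trims long peptides, was the 1 gene that rose (0.35 ± 0.13, limma adjusted p = 0.048), and it is named after its value was seen. CALR, PDIA3 and NRDC, also named after their values were seen, did not pass (0.13, -0.19 and 0.02).

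Of 14 interferon signalling genes tested, 7 fell and 1 rose (median -0.22), which is 57.1% called beside 46.2% of all genes. IFNGR2, a chain of the interferon gamma receptor, averaged 593 units in S1a, 497 in S1b and 1256 in parental cells (-1.2 ± 0.0896, limma adjusted p = 5.79e-06), while the other chain, IFNGR1, did not pass (-0.02 ± 0.081). IRF1, the factor that carries the interferon signal to the PSMB9 and TAP1 promoters, averaged 313 units in S1a, 225 in S1b and 387 in parental cells. It fell by 0.53 ± 0.128 (limma adjusted p = 0.00687), and the call ended with median centring (-0.34, limma adjusted p = 0.0618) or without parental replicate 2 (-0.42, limma adjusted p = 0.0542). The kinase JAK1 fell by 0.41 ± 0.0786, a call that ended with median centring (-0.22, limma adjusted p = 0.0851), and the type I receptor chain IFNAR2 fell by 0.69 ± 0.135. PTPN2, a phosphatase that acts against this signal, rose by 0.51 ± 0.0951. Other inhibitors in the list did not rise past the threshold, and they are named after their values were seen. SOCS1 fell by 1.52 ± 0.333 (limma adjusted p = 0.00419), with dim means of 38.3 units in S1a, 35.2 in S1b and 113 in parental cells. SOCS3 and PIAS1 did not pass (-0.04 and 0.02). NLRC5 was not analysed here.

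Regulators of the constitutive subunits gave 2 rises and 1 fall among 8 tested, or 37.5% called beside 46.2% of all genes. NFE2L1, which raises proteasome genes when proteasome activity is short, did not pass (0.11 ± 0.094, limma adjusted p = 0.361), though it did with median centring (0.3, limma adjusted p = 0.0301). Its relative NFE2L2 fell by 0.53 ± 0.0972 (limma adjusted p = 0.00163), and MAFF, a small partner of both, rose by 0.74 ± 0.0695 (limma adjusted p = 2.35e-05). STAT3 rose by 0.69 ± 0.0722.

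Of 15 assembly and associated factors tested, 2 rose and 3 fell (median -0.02), or 33.3% called, under the 46.2% of all genes. POMP, which matures the barrel, did not pass (-0.02 ± 0.0809), nor did PSMF1, an inhibitor of the barrel in vitro (0.22 ± 0.102, limma adjusted p = 0.0958). PSMF1 passed with median centring (0.41) and without parental replicate 1 (0.4), and POMP turned to 0.05 and 0.17 with quantile normalization and median centring, without passing. ADRM1, a ubiquitin receptor of the regulatory particle, rose by 0.48 ± 0.0697 (limma adjusted p = 0.000375) and PSMG2, a chaperone of the alpha ring, by 0.35 ± 0.0786. UBE3C, a ubiquitin ligase bound to proteasomes, fell by 0.56 ± 0.0869 and ECPAS, an adaptor, by 0.34 ± 0.0817, a call that ended with median centring (-0.15, limma adjusted p = 0.204). Of 6 ubiquitin and unfoldase genes, 3 rose and 2 fell, or 83.3% called beside 46.2% of all genes. VCP, the unfoldase that pulls proteins out of complexes, and its partners NPLOC4 and UFD1 rose by 0.3, 0.34 and 0.37, and the call of VCP ended without parental replicate 1 (0.22, limma adjusted p = 0.0687) or the variance trend (limma adjusted p = 0.0642). UBA1, which activates ubiquitin, fell by 0.61 ± 0.107 (limma adjusted p = 0.00111).

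**Figure D5:**
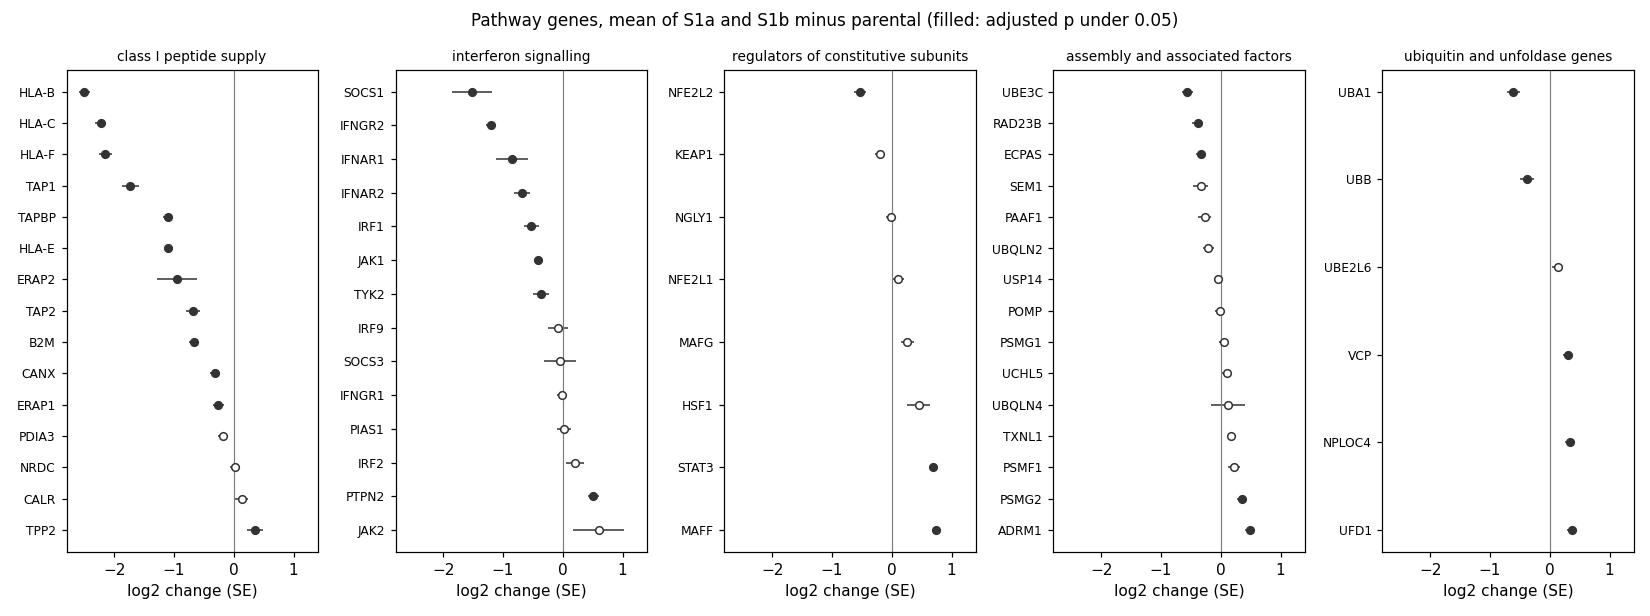
Log2 change (points, with SE bars) in the mean of S1a and S1b minus parental for every tested gene of the 5 pathway lists, filled where the limma adjusted p is under 0.05. Class I peptide supply genes, class I chains included, lie mostly left of 0 (11 of 15 fell and 1 rose). Of 14 interferon signalling genes, 10 lie left of 0 and 4 right (7 fell and 1 rose). The other lists also lie on both sides.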

How the data were processed

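RNA of S1a, S1b and parental MDA-MB-231 cells was measured on 6 Affymetrix arrays, 2 for each population. The deposited values are MAS5 signals, per the submitters' processing notes, a linear intensity for each probe set; the version of the software is not given in the sources used here. The 2% trimmed mean of every array was 500.2 units, and the median signal was 87.6 to 91.7 units in the isolates and 98.6 and 106.2 in parental cells. Of 22277 probe sets, 62 were controls, 19064 had 1 gene symbol, 1043 several and 2108 none in the platform annotation.

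For each gene the brightest probe set with 1 symbol was used. Genes whose mean was under the 40th percentile (44 units) were left out, which left 7791. Values were tested as log2(signal + 3.942), the pseudocount being the 10th percentile, with limma 3.58.1 in R 4.3.3 (lmFit and eBayes with a variance trend, all 3 populations in 1 fit) and Benjamini-Hochberg adjustment over all genes at 0.05. The fit had 3 residual and 7 prior degrees of freedom. A fit of 13329 probe sets gave values for PSME2 and PSMA6. The procedure was tested on simulated data. The number of arrays limits the precision.

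Named were the inducible subunits and their counterparts, the 6 largest rises and 6 largest falls of the other proteasome genes, those past the threshold in S1b against S1a, genes whose probe sets disagree in sign, and from each pathway list up to 4 genes with the smallest p and a few set by name. The members and lists were chosen with earlier results of these data known. Arrays of the same number were not treated as pairs in the main fit, since no pairing is stated. Deviations from the population means correlated at -0.06, 0.00 and -0.07 between populations. With so few arrays in each population, these values cannot exclude pairing.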

Additional observations from a re-analysis of the deposited data

Results flagged for a closer look

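PSMB8, PSMB9 and PSMB10 had effects that differed between the isolates when each was set against the same parental arrays. The test is limma's contrast of S1b against S1a. PSMB9 was lower in S1b by a log2 difference of -0.82 (limma adjusted p = 0.0049), PSMB10 by -0.70 (limma adjusted p = 0.00952) and PSMB8 by -0.55 (limma adjusted p = 0.0472). Both S1b arrays lay below both S1a arrays for each gene, as for 23.9% of all genes tested. None of these calls held without the variance trend. With 2 arrays in each population, single arrays that stand apart were not looked for as such. Each array was left out in turn, and the calls depended on which array was left out.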

How the results depend on the processing

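The falls of PSMB8, PSMB9 and PSMB10 in the mean of both isolates passed under every alternative in which the gene was measured. In S1a alone, PSMB10 did not pass in the main fit (-0.27, limma adjusted p = 0.0649). PSMB8 had no value with shared-probe suffixes left out. The median change of the inducible genes (-0.77) was -0.58 with median centring, -0.62 with those suffixes left out and -0.82 to -0.71 with each array left out in turn. That of the other genes (0.00) was 0.19, 0.05 and -0.06 to 0.02. With the suffixes left out, 12 proteasome genes were called in both isolates in place of 19, 8 in S1a in place of 16 and 10 in S1b in place of 17. Without the variance trend S1a had 7, S1b 10 and S1b against S1a 0 in place of 3. At 1.5-fold or more, an alternative chosen after seeing the data, the counts were 3 in both, 2 in S1a and 4 in S1b. With an array left out they were 14 to 18 in both, 7 to 17 in S1a, 11 to 17 in S1b and 0 to 3 between S1b and S1a. S1a had 7 without S1a replicate 1 or 2, and S1b had 11 without S1b replicate 2. S1b against S1a had 0 without S1a replicate 1 or S1b replicate 2. The causes were not tested. The difference between PSMB8 and PSMB5 ran from -0.99 to -0.78, that between PSMB9 and PSMB6 from -1.69 to -1.61 and that between PSMB10 and PSMB7 from -0.55 to -0.23.

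Directions turned for genes that did not pass: POMP was 0.05 with quantile normalization and 0.17 with median centring, PSME1 0.12 and PSMB5 0.16 with median centring. With an array left out, POMP ran from -0.07 to 0.03, PSME1 from -0.16 to 0.02, PSMB5 from -0.08 to 0.01 and PSME3 from -0.06 to 0.14. With the replicate number as a block, 16 genes were called in both isolates, 14 in S1a, 15 in S1b and 2 in S1b against S1a, where PSMB8 no longer passed (limma adjusted p = 0.0939). PSMB8 also lost that call with no filter (0.0825), quantile normalization (0.0759), median centring (0.0638) and the mean of probe sets (0.0721). All genes were called 2698 higher and 1087 lower with median centring, against 1771 and 1829 as deposited.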
